A study of Homo sapiens with 12 samples.

Results

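The transcripts of 10 genes that report on RAS-ERK signalling were followed in HCT 116p53-/- cells and in a sub-line labelled as an RPL3 knockout, each with and without Actinomycin D (Act D). The genes were fixed by name as transcriptional outputs and feedback regulators of the pathway, and comprised the phosphatases DUSP4, DUSP5 and DUSP6, the inhibitors SPRY2, SPRY4, SPRED1 and SPRED2, the transcription factors ETV4 and ETV5, and PHLDA1. This choice was made with earlier results of these data known. Counts of these genes beside all genes are therefore descriptions. Each of the 10 matched 1 Ensembl identifier among the 60617 genes in the files, and all passed the filter on low counts. HCT 116 is a human colon cancer line, and both lines compared here lack p53. The labels give the genotype of the second line as P53-/- with RPL3 KO, and the study describes it as a sub-line stably silenced for uL3, the protein that RPL3 encodes. Act D, which at low concentration inhibits rRNA transcription by RNA polymerase I, was given at 5 nM for 24 h, and the controls received vehicle. The 4 groups therefore were HCT 116p53-/- with vehicle, HCT 116p53-/- with Act D, RPL3 KO with vehicle and RPL3 KO with Act D, with 3 libraries each that the labels call biological replicates. Each genotype is represented by 1 line, so that a difference between the lines cannot be told apart from any other property that separates them.

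Depth and identity of the libraries bear on every value. The totals of the deposited expected counts were between 10087925 and 21138886 per library. RPL3 itself (ENSG00000100316, hg38 chromosome 22, 39312882 to 39320389, minus strand) did not pass the test between the lines, with log2 fold changes of 0.13 with vehicle and 0.12 with Act D (edgeR adjusted p = 0.155 and 0.187) that turned to -0.11 and -0.13 when libraries were scaled by their totals only. Its level with vehicle was 1138 ± 15.3 CPM without and 1242 ± 82.5 CPM with the knockout label (SD, n = 3 each). Since the targeted transcript was not lower, the libraries are called RPL3 KO-labelled below. They also differed from HCT 116p53-/- cells in markers of the labelled tissue. CDX2, the intestinal homeobox factor, was at 14.8 ± 0.581 CPM against 0.177 ± 0.0862 CPM, and the adhesion protein gene CDH1 at 66.8 ± 2.34 CPM against 0.445 ± 0.271 CPM with vehicle (SD, n = 3 each). Of the 12 colon epithelial markers listed 7 were tested, of which 6 were lower and 1, KRT18, was higher (605 ± 25.3 CPM against 840.3 ± 51.4 CPM). Of 8 mesenchymal markers 7 were tested, of which 5 were higher, led by VIM (22.0 ± 3.38 CPM against 2237 ± 30.9 CPM) and FN1 (22.6 ± 1.82 CPM against 249 ± 11.3 CPM), COL1A1 was lower (7.50 ± 1.21 CPM against 4.14 ± 1.28 CPM) and CDH2 did not pass. Among all genes tested, 35.1% were higher and 36.2% lower with vehicle (71.3% in all). CDX2 and CDH1 passed the filter on low counts only through HCT 116p53-/- libraries, where they are high. The summed level of the epithelial markers was between 2481 and 2682 CPM in HCT 116p53-/- cells and between 1592 and 1784 CPM in RPL3 KO-labelled libraries, and that of the mesenchymal markers between 52.0 and 62.0 CPM and between 2482 and 2556 CPM. Of 5 leukocyte markers, 2 passed the filter (CD68 and LYZ), and the pan-leukocyte gene PTPRC was at most 0.161 CPM in any library. Summed over the 5 they reached 12.3 CPM with vehicle in HCT 116p53-/- cells and 35.3 CPM in RPL3 KO-labelled libraries. Low values in either line stand beside a small share of transcripts otherwise near-exclusive to the other line. Genes near-exclusive to HCT 116p53-/- cells were found in RPL3 KO-labelled libraries at a median of 0.580% to 0.720% of their HCT 116p53-/- level with vehicle and 0.265% to 1.35% with Act D, and the reverse share is given with SPRY2. Both sets of genes were chosen by low levels in the same libraries, which bounds the shares that can be found. The part of the marker differences in the results below was not tested.

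In the RAS-ERK pathway, growth factor receptors load RAS with GTP, and RAS then activates the kinase chain RAF, MEK and ERK. Active ERK induces transcription factors of the ETS family and at the same time its own brakes. The inducible DUSP phosphatases remove the activating phosphates from MAP kinases, while Sprouty and Spred proteins act further upstream, between the receptors and RAF. These transcripts are known to rise with ERK activity and are used as readouts of pathway output in cancers with mutated RAS or RAF. No phosphorylation was measured here, and the values below are transcript levels.

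The members are spread over 9 chromosomes of hg38, with DUSP6 (chromosome 12, 89347235 to 89352501, minus strand) and PHLDA1 (chromosome 12, 76025447 to 76031776, minus strand) on the same one. Among the genes with the largest differences below, SPRY2 lies at chromosome 13, 80335976 to 80341126, minus strand, SPRY4 at chromosome 5, 142310427 to 142326455, minus strand, ETV4 at chromosome 17, 43527844 to 43579620, minus strand and ETV5 at chromosome 3, 186046314 to 186110318, minus strand. DUSP5 lies at chromosome 10, 110497907 to 110511533, plus strand, SPRED1 at chromosome 15, 38252836 to 38357249, plus strand and SPRED2 at chromosome 2, 65310851 to 65432637, minus strand. In the 1 library with values per transcript (replicate 2 of HCT 116p53-/- cells with vehicle), a single transcript held from 66.3% of the gene's abundance (SPRY4) to all of it (DUSP5). RSEM assigned the reads of the members with little ambiguity, since its posterior standard deviation was at most 0.177% of the count in the other 11 libraries.

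Promoter sequence is shown for 2 members at the ends of the comparison between the lines, SPRY2, with the widest difference, and PHLDA1, which did not pass the threshold. Each run holds the 250 bases before a RefSeq start of the gene on GRCh38.p14, read 5′ to 3′ on the minus strand, and capitals mark matches to the ETS core described next. SPRY2 lies at chr13:80341127-80341376 and ends just before the first base of the transcript that held 92.8% of its abundance. PHLDA1 lies at chr12:76031777-76032026, and its main transcript begins 172 bases further downstream.
SPRY2: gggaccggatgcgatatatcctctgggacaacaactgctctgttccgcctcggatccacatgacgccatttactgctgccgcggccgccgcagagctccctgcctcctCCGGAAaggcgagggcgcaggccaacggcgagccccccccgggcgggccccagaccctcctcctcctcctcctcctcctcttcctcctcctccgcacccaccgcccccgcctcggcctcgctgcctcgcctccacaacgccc
PHLDA1: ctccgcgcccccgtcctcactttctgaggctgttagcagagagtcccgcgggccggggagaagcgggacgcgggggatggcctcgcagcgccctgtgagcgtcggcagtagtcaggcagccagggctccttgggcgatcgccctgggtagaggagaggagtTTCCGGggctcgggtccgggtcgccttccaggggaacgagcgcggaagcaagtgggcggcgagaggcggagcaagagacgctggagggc

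The following 3 motifs were searched on both strands of such windows, the ETS core CCGGAA, which factors such as ETV4 and ETV5 bind, the AP-1 site TGANTCA and the cyclic AMP response element TGACGTCA. The ETS core is present once in each of both windows, on the strand shown in SPRY2 and on the other strand in PHLDA1, and it is found in 14.5% of all 35116 RefSeq windows of this length. AP-1 sites (6.57% of all windows) and the cyclic AMP element (1.65%) have no match in either. RefSeq windows were at hand for SPRED1, SPRED2, SPRY4 and DUSP6 as well, and none of the 3 motifs matched in them. SPRY2 also has RefSeq starts 1018 and 1467 bases from that of its main transcript, and the windows before these held no match either. A match is a description of the letters only.

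Levels of different genes were compared per transcript length, as the deposited TPM, within each group. In HCT 116p53-/- cells with vehicle PHLDA1 was the highest at 28.5 ± 1.34 TPM and SPRY2 the lowest at 1.60 ± 0.310 TPM (SD, n = 3 each), a ratio of 17.8. Between them the order was DUSP5, DUSP4, DUSP6, ETV4, SPRED2, SPRED1, ETV5 and SPRY4. Of the 9 pairs of neighbours in this order, 3 overlapped in range, namely DUSP5 with DUSP4, SPRED2 with SPRED1 and SPRED1 with ETV5. With vehicle the RPL3 KO-labelled libraries ran in another order. By its mean DUSP5 was the highest at 30.2 ± 2.30 TPM, SPRY2 came second at 26.3 ± 4.05 TPM, and SPRED1 was the lowest at 9.56 ± 3.31 TPM (SD, n = 3 each). DUSP5 and SPRY2 overlapped in range, as did SPRED2 and SPRED1. The ratio of highest to lowest there was 3.16, and 7 of the 9 neighbouring pairs overlapped, so that the members from ETV5, next after SPRY2, down to DUSP4 formed a series without a clear step. With Act D, PHLDA1 was again the highest by its mean and SPRY2 the lowest in HCT 116p53-/- cells, and DUSP5 the highest and SPRED1 the lowest in RPL3 KO-labelled libraries. PHLDA1 overlapped there with DUSP4 and DUSP5 with SPRY2, while the lowest genes did not overlap with their neighbours. TPM was not compared between the lines, since 2 signal recognition particle RNAs, RN7SL1 and RN7SL2, took between 24.8% and 28.6% of all TPM in HCT 116p53-/- cells with vehicle and between 30.8% and 37.3% in RPL3 KO-labelled libraries with vehicle.

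**Figure D1:**
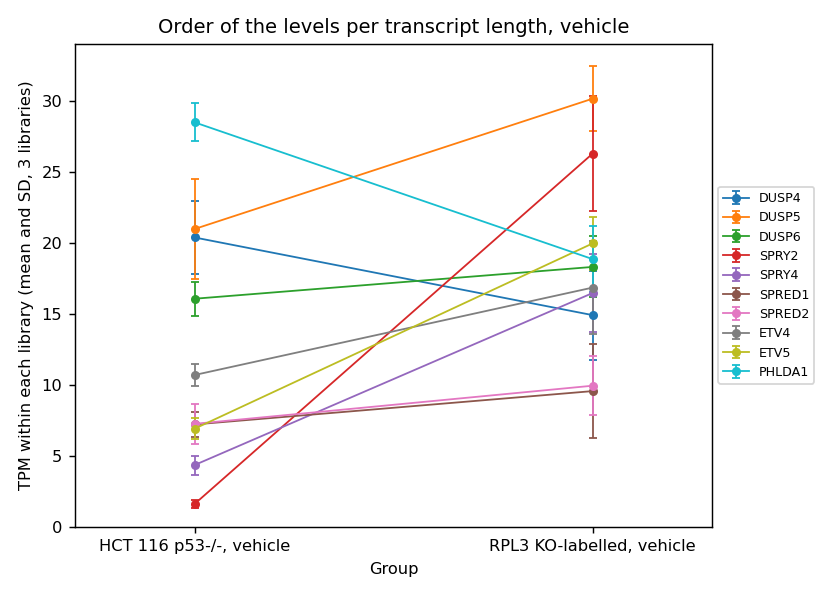
TPM of the 10 genes (vertical axis, mean and SD of 3 libraries) in the 2 vehicle groups, 1 line per gene. SPRY2 runs from the lowest place in HCT 116p53-/- cells (1.60 TPM) to the second highest in RPL3 KO-labelled libraries (26.3 TPM), and the lines show order within a group, not a tested change.

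The first comparison asked how the lines differ at baseline, with values between lines given as CPM with TMM-normalized library sizes. Of the 10 members, 8 were higher in RPL3 KO-labelled libraries with vehicle, 0 were lower and 2 did not pass the threshold (edgeR's quasi-likelihood test, adjusted p under 0.05). Over all 15692 genes tested 71.3% passed, 35.1% higher and 36.2% lower, so that the share of members past the threshold, 80.0%, lay near the background. The libraries of the lines did not overlap for the same 8 members, all upward, and for 72.5% of all genes, 35.5% upward and 37% downward. The median log2 fold change was 0.94 for the members and -0.02 for all genes. Without TMM factors, by library totals only, the median of all genes was -0.26, and 7 members were higher and 1 lower.

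The Sprouty genes differed most. Sprouty proteins restrain signalling from receptor tyrosine kinases to RAS and RAF. SPRY2 was at 3.76, 4.48 and 5.62 CPM in HCT 116p53-/- cells and at 110.0, 108 and 101 CPM in RPL3 KO-labelled libraries. Every RPL3 KO-labelled library lay far above every HCT 116p53-/- library, and the difference was 22.9-fold (log2 fold change 4.52 with standard error 0.15, edgeR adjusted p = 2.48e-14). SPRY4 was at 23.7, 20.5 and 23.4 CPM and at 97.8, 111 and 135 CPM, again without overlap and 5.07-fold higher (log2 fold change 2.34 with standard error 0.12, edgeR adjusted p = 7.64e-12). The Spred proteins, which bind RAS and bring the RAS inactivator neurofibromin to the membrane, differed much less. SPRED1 was at 57.7, 58.3 and 58.0 CPM against 86.0, 74.6 and 79.1 CPM (log2 fold change 0.46, edgeR adjusted p = 0.000104). SPRED2 was at 35.1, 35.9 and 43.7 CPM against 54.9, 53.8 and 60.8 CPM (log2 fold change 0.56, edgeR adjusted p = 0.000187). The groups did not overlap for either gene, but under scaling by library totals SPRED1 no longer passed (0.22, adjusted p = 0.0567).

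ETV4 and ETV5 are ETS transcription factors of the PEA3 subfamily and among the best known targets of ERK. ETV5 was at 28.9, 33.8 and 34.3 CPM in HCT 116p53-/- cells and at 115, 129 and 128 CPM in RPL3 KO-labelled libraries with vehicle, 3.83-fold higher (log2 fold change 1.94 with standard error 0.09, edgeR adjusted p = 2.61e-12). ETV4 was at 27.4, 28.2 and 24.2 CPM and 62.7, 57.6 and 60.5 CPM, 2.27-fold higher (log2 fold change 1.18 with standard error 0.10, edgeR adjusted p = 6.62e-09). For both genes each RPL3 KO-labelled library exceeded each HCT 116p53-/- library.

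The phosphatases were divided. DUSP6, the cytoplasmic phosphatase that is selective for ERK, was at 61.7, 66.7 and 67.1 CPM in HCT 116p53-/- cells and 108, 117 and 123 CPM in RPL3 KO-labelled libraries, 1.78-fold higher (log2 fold change 0.83 with standard error 0.08, edgeR adjusted p = 6.03e-08). DUSP5, a nuclear phosphatase of ERK, was at 72.4, 65.7 and 56.0 CPM and 109.6, 150.0 and 141 CPM, 2.07-fold higher (log2 fold change 1.05 with standard error 0.12, edgeR adjusted p = 3.8e-07). DUSP4 (hg38 chromosome 8, 29333064 to 29350684, minus strand), which is also nuclear and acts on several MAP kinases, was at 155, 136 and 145 CPM and 163, 144 and 142 CPM with overlapping groups. Its difference did not pass the threshold (log2 fold change 0.04 with standard error 0.09, edgeR adjusted p = 0.675, 95% interval -0.14 to 0.23), and it turned to -0.20 under scaling by library totals. PHLDA1, a pleckstrin homology-like protein induced by mitogens, overlapped too, at 201, 216 and 222 CPM and 193, 202 and 206 CPM (log2 fold change -0.09 with standard error 0.07, edgeR adjusted p = 0.303, 95% interval -0.24 to 0.07). Under scaling by library totals PHLDA1 was lower in RPL3 KO-labelled libraries (-0.33, adjusted p = 0.00313).

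**Figure D2:**
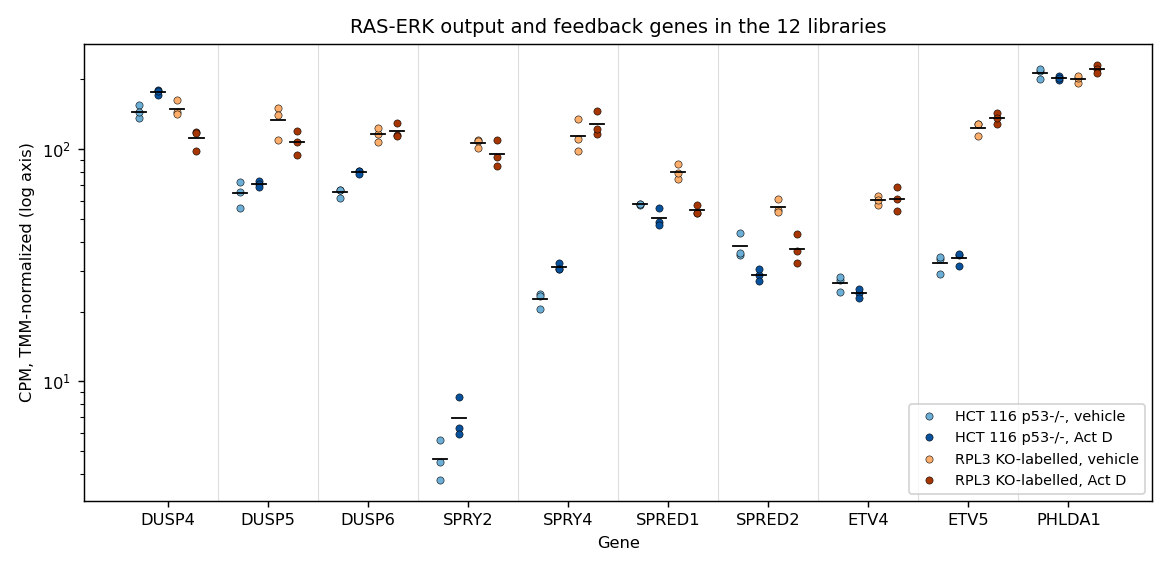
CPM of each gene (log axis) in each of the 12 libraries, coloured by group, with a bar at the mean of each group of 3. SPRY2, SPRY4, ETV4 and ETV5 show the widest gaps between blue (HCT 116p53-/-) and orange (RPL3 KO-labelled) points, while PHLDA1 stays between 193 and 231 CPM throughout.

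The lines were compared in the same way after Act D. In the RPL3 KO-labelled libraries 7 members were higher and 1 was lower at an adjusted p under 0.05, against 35.1% higher and 35.3% lower of all genes (70.4% in all). The lower one was DUSP4, at 171, 179.7 and 179 CPM in HCT 116p53-/- cells and 119, 98.1 and 117 CPM in RPL3 KO-labelled libraries, which did not overlap (log2 fold change -0.66 with standard error 0.09, edgeR adjusted p = 3.51e-06). SPRY2 was still the most distant, at 6.29, 5.95 and 8.61 CPM against 84.3, 92.2 and 109.8 CPM (log2 fold change 3.79 with standard error 0.15, edgeR adjusted p = 1.94e-13). SPRY4 was at 32.4, 30.5 and 30.4 CPM against 146, 116 and 123 CPM, 4.13-fold higher (log2 fold change 2.05, edgeR adjusted p = 4.83e-11). None of these 3 genes overlapped between the lines. ETV5 was at 31.5, 35.0 and 35.5 CPM against 143, 129 and 136 CPM (log2 fold change 2.00, edgeR adjusted p = 2.5e-12). ETV4 was at 24.0, 24.95 and 22.8 CPM against 69.0, 54.1 and 60.9 CPM (log2 fold change 1.36, edgeR adjusted p = 1.51e-09).

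The other members differed less than these after Act D, or did not pass. DUSP6 was at 80.5, 80.8 and 77.9 CPM in HCT 116p53-/- cells and 130.2, 115 and 114 CPM in RPL3 KO-labelled libraries (log2 fold change 0.59, edgeR adjusted p = 5.15e-06). DUSP5 was at 73.3, 71.1 and 68.9 CPM and 120.1, 94.3 and 107 CPM (log2 fold change 0.59, edgeR adjusted p = 0.000264). Both were higher in every RPL3 KO-labelled library. SPRED2 was at 28.6, 27.1 and 30.5 CPM and 36.4, 42.9 and 32.3 CPM (log2 fold change 0.37, edgeR adjusted p = 0.00809). This call rested on replicate 2 of RPL3 KO-labelled cells with Act D, without which the log2 fold change was 0.23 and the adjusted p 0.0878, and it was also lost under scaling by library totals (0.13, adjusted p = 0.346). SPRED1, at 48.7, 47.1 and 55.6 CPM and 57.4, 53.2 and 53.2 CPM, did not pass (log2 fold change 0.12, 95% interval -0.07 to 0.30, edgeR adjusted p = 0.247). PHLDA1, at 199, 206 and 203 CPM and 231, 221 and 212 CPM, did not pass either (log2 fold change 0.13, 95% interval -0.03 to 0.28, edgeR adjusted p = 0.129), although its groups did not overlap. Such separation was found for 8 members upward and 1 downward out of 10 members and for 36.5% and 37.6% of all genes (74.1% in all). Scaling by library totals turned the sign of both SPRED1 (-0.12) and PHLDA1 (-0.12).

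**Figure D3:**
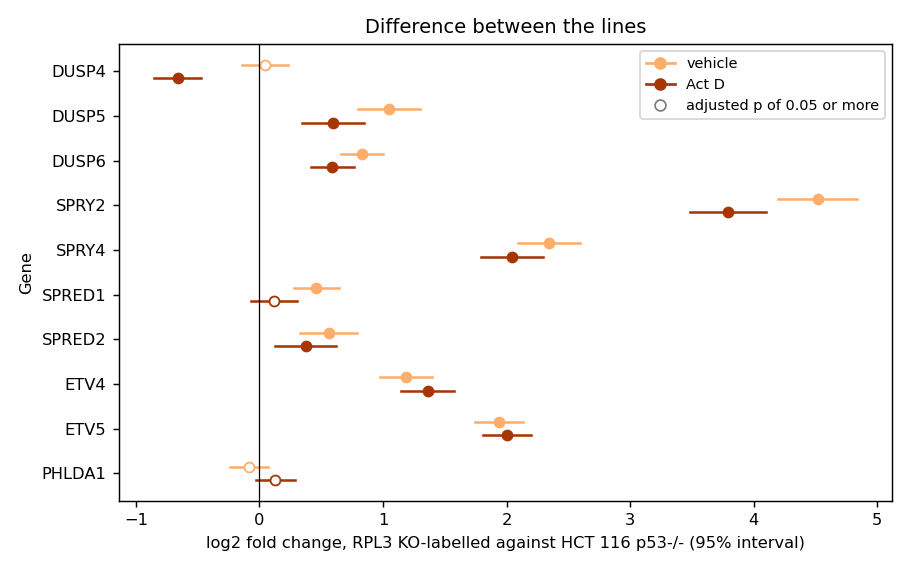
log2 fold change of RPL3 KO-labelled libraries against HCT 116p53-/- cells (horizontal axis) with its 95% interval, for each gene with vehicle (light) and with Act D (dark), where open points have an adjusted p of 0.05 or more. SPRY2 lies farthest to the right (4.52 with vehicle and 3.79 with Act D), and DUSP4 with Act D (-0.66) is the one filled point to the left of 0.

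The effect of Act D was examined in each line. In HCT 116p53-/- cells, at an adjusted p under 0.05, 4 members rose and 1 fell, while 5 did not pass, against 7.59% of all genes that rose and 11.1% that fell (18.7% in all). Treated and control libraries did not overlap for 4 members upward and 2 downward, against 18.2% and 20% of all genes (38.2% in all). The median log2 fold change was 0.10 for the members and 0.02 for all genes. SPRY4 rose from 23.7, 20.5 and 23.4 CPM to 32.4, 30.5 and 30.4 CPM, a rise of 1.38-fold (log2 fold change 0.46 with standard error 0.12, edgeR adjusted p = 0.0135). DUSP6 rose from 61.7, 66.7 and 67.1 CPM to 80.5, 80.8 and 77.9 CPM (1.22-fold, log2 fold change 0.29 with standard error 0.08, edgeR adjusted p = 0.0198). DUSP4 rose from 155, 136 and 145 CPM to 171, 179.7 and 179 CPM (1.22-fold, log2 fold change 0.28 with standard error 0.09, edgeR adjusted p = 0.0332). In all 3 genes the lowest treated library lay above the highest control library. SPRED2 fell, from 35.1, 35.9 and 43.7 CPM to 28.6, 27.1 and 30.5 CPM (log2 fold change -0.41 with standard error 0.11, edgeR adjusted p = 0.016), also without overlap.

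SPRY2 was the fourth gene that rose with Act D in HCT 116p53-/- cells, from 3.76, 4.48 and 5.62 CPM to 6.29, 5.95 and 8.61 CPM (log2 fold change 0.57 with standard error 0.18, edgeR adjusted p = 0.0313). These low levels have to be read beside transcripts of the other line found in the same libraries. A set of 36 genes with at least 50 CPM in RPL3 KO-labelled libraries and under 2% of that level in HCT 116p53-/- cells was found in the HCT 116p53-/- libraries at a median of 0.351% to 0.605% of the RPL3 KO-labelled level with vehicle and 0.942% to 1.05% with Act D. The limit of 2% was set on the mean of these same HCT 116p53-/- libraries, which bounds the share that can be found. With this share subtracted (an alternative added once the data had been seen), the log2 fold change of SPRY2 was 0.53 and the adjusted p 0.0718. The subtraction took the mean of SPRY2 from 4.62 to 4.15 CPM in the HCT 116p53-/- controls. In the treated HCT 116p53-/- libraries the mean went from 6.95 to 6.08 CPM, so that most of the level remained in both groups. The other 4 calls in HCT 116p53-/- cells held under that subtraction.

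The number of members past the threshold in HCT 116p53-/- cells depended on single libraries. In place of 5, it was 3, 2 and 3 without vehicle replicate 1, 2 or 3, and 1, 2 and 3 without Act D replicate 1, 2 or 3. Scaling by library totals gave 0 that rose and 2 that fell (SPRED1 and SPRED2). The directions of the 5 genes were kept in each of these fits and in each alternative, with log2 fold changes of 0.18 to 0.33 for DUSP4, 0.19 to 0.33 for DUSP6, 0.42 to 0.74 for SPRY2, 0.36 to 0.50 for SPRY4 and -0.52 to -0.31 for SPRED2. Of the members that did not pass, SPRED1 had -0.20 (95% interval -0.38 to -0.02), ETV4 -0.15 (-0.37 to 0.07), ETV5 0.07 (-0.13 to 0.27), PHLDA1 -0.07 (-0.23 to 0.08) and DUSP5 0.14 (-0.12 to 0.39) on the log2 scale.

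In RPL3 KO-labelled cells 0 members rose with Act D and 3 fell at an adjusted p under 0.05, against 3.51% and 8.4% of all genes (11.9% in all). The libraries did not overlap for 1 member upward (PHLDA1, which did not pass) and 3 downward, against 12.8% and 14.8% of all genes (27.6% in all). The median log2 fold change was -0.06 for the members and 0.03 for all genes. SPRED2 fell from 54.9, 53.8 and 60.8 CPM to 36.4, 42.9 and 32.3 CPM (log2 fold change -0.60 with standard error 0.11, edgeR adjusted p = 0.00164). SPRED1 fell from 86.0, 74.6 and 79.1 CPM to 57.4, 53.2 and 53.2 CPM (log2 fold change -0.55 with standard error 0.09, edgeR adjusted p = 0.000417). DUSP4 fell from 163, 144 and 142 CPM to 119, 98.1 and 117 CPM (log2 fold change -0.42 with standard error 0.09, edgeR adjusted p = 0.00449). For these 3 genes the treated and control libraries did not overlap, and the calls were kept without any one of the 6 libraries. Both Spred genes thus fell in these cells, while the 2 Sprouty genes did not pass. SPRY2 was at -0.16 (95% interval -0.41 to 0.09, edgeR adjusted p = 0.431) and SPRY4 at 0.17 (-0.07 to 0.40, edgeR adjusted p = 0.376). DUSP5 was at -0.32 (-0.57 to -0.07, edgeR adjusted p = 0.0965). It passed without vehicle replicate 1, the lowest of its 3 controls (-0.44, adjusted p = 0.0145), without a filter on low counts (-0.36, adjusted p = 0.00882) and with scaling by library totals (-0.41, adjusted p = 0.0441). The intervals of DUSP6 (-0.12 to 0.22), ETV4 (-0.17 to 0.23), ETV5 (-0.05 to 0.32) and PHLDA1 (-0.01 to 0.30) all included 0.

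**Figure D4:**
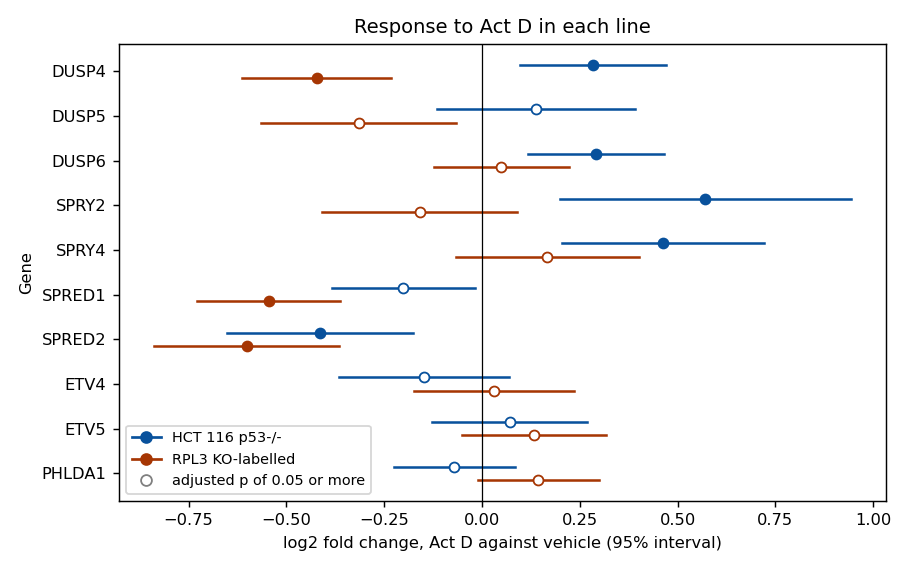
log2 fold change of Act D against vehicle (horizontal axis) with its 95% interval, in HCT 116p53-/- cells (blue) and RPL3 KO-labelled cells (red), where open points have an adjusted p of 0.05 or more. DUSP4 has filled points on both sides of 0 (0.28 and -0.42), and SPRED2 has both to the left (-0.41 and -0.60).

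Whether the lines differed in their response was tested as the interaction of line and treatment. It passed for 2 members, DUSP4 and SPRY2, both with a lower response in RPL3 KO-labelled cells, where 3.23% of all genes passed in this direction, 3.3% in the other and 6.53% in all. DUSP4 changed by 0.28 in HCT 116p53-/- cells and by -0.42 in RPL3 KO-labelled cells, a difference of -0.71 on the log2 scale (standard error 0.13, edgeR adjusted p = 0.00294). It passed in every alternative, with adjusted p between 6.13e-06 and 0.0151. SPRY2 changed by 0.57 and -0.16, a difference of -0.73 (standard error 0.21, edgeR adjusted p = 0.0481), which was lost without any one of 9 of the 12 libraries (it passed without HCT 116p53-/- vehicle replicate 3, HCT 116p53-/- Act D replicate 2 or RPL3 KO-labelled Act D replicate 3), with upper-quartile scaling (-0.70, adjusted p = 0.056) and with the share of the other line subtracted (-0.69, adjusted p = 0.0894). For the other 8 members the difference did not pass, and it was widest for DUSP5 at -0.45 (95% interval -0.81 to -0.10, edgeR adjusted p = 0.122) and SPRED1 at -0.34 (-0.60 to -0.09, edgeR adjusted p = 0.105). DUSP5 passed without replicate 1 of RPL3 KO-labelled cells with vehicle (-0.58, adjusted p = 0.0265) and without a filter on low counts (-0.49, adjusted p = 0.023).

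Other genes of the pathway were read from the same fit to place the members among them. Their lists, like the members, were chosen with earlier results of these data known. Of 17 genes for RAS proteins and their regulators, 7 were higher and 6 lower in RPL3 KO-labelled libraries with vehicle, with a median log2 fold change of -0.02, beside -0.02 for all genes. Of all genes tested, 35.1% were higher and 36.2% lower there (71.3% in all). The most distant were NF1, which encodes neurofibromin, at 29.5 ± 1.58 CPM against 117 ± 10.5 CPM (SD, n = 3 each; log2 fold change 1.99 with standard error 0.11, edgeR adjusted p = 3.16e-11), and DAB2IP, another RAS GTPase-activating protein, at 47.2 ± 7.73 CPM against 18.6 ± 0.221 CPM (SD, n = 3 each; log2 fold change -1.35 with standard error 0.13, edgeR adjusted p = 4.46e-08). The exchange factor SOS1 was lower (51.1 ± 1.87 CPM against 23.7 ± 2.10 CPM, edgeR adjusted p = 3.52e-08). Genes of this list thus differed in both directions, and with scaling by library totals 5 higher and 7 lower genes were counted.

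Of 14 genes for RAF, MEK and ERK kinases and their scaffolds, 7 were higher and 3 lower with vehicle, beside 35.1% and 36.2% of all genes. Their median was 0.13, while scaling by library totals gave 5 higher and 5 lower. ARAF was at 4.09 ± 0.751 CPM against 23.8 ± 0.659 CPM, and PEA15, which holds ERK in the cytoplasm, at 58.7 ± 3.82 CPM against 182 ± 5.83 CPM (SD, n = 3 each; log2 fold changes 2.54 and 1.64, edgeR adjusted p = 7.68e-11 and 2.12e-12). In HCT 116p53-/- cells the scaffold gene KSR2 was at 18.6 ± 3.62 CPM, while it had between 1 and 4 counts in each of the RPL3 KO-labelled libraries with vehicle. SHOC2, a scaffold that promotes RAF activation, was lower (log2 fold change -0.89, edgeR adjusted p = 1.12e-06).

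The families of the members and other outputs of ERK held more genes that were higher than lower, also with scaling by library totals (7 higher and 4 lower, and 9 higher and 5 lower). Of 11 further DUSP, SPRY and SPRED genes tested (SPRY3 did not pass the filter), 7 were higher and 3 lower with vehicle, with a median of 1.19. Of all genes tested, 35.1% were higher and 36.2% lower (71.3% in all). DUSP10, a phosphatase of JNK and p38, was at 1.72 ± 0.491 CPM against 26.3 ± 3.65 CPM (SD, n = 3 each; log2 fold change 3.92 with standard error 0.18, edgeR adjusted p = 1.88e-12), and the immediate early phosphatase DUSP1 at 8.69 ± 1.00 CPM against 111 ± 17.9 CPM (log2 fold change 3.68 with standard error 0.14, edgeR adjusted p = 1.11e-13). Lower were DUSP14, at 31.1 ± 1.59 CPM against 13.7 ± 1.60 CPM (edgeR adjusted p = 1.63e-07), and DUSP3 (log2 fold change -0.32, edgeR adjusted p = 0.00729). Of 15 other genes that respond to ERK or mediate its output, 9 were higher and 4 lower, beside the same shares of all genes, with a median of 1.12. They included TRIB2, a pseudokinase gene (log2 fold change 2.91, edgeR adjusted p = 6.13e-13), and the ephrin receptor gene EPHA4 (2.69, edgeR adjusted p = 7.15e-12), while ELK4, an ETS factor of the ternary complex type, was lower (-0.48, edgeR adjusted p = 0.000833). MYC was the lowest of this list, at 385 ± 9.68 CPM against 15.3 ± 1.25 CPM (SD, n = 3 each; log2 fold change -4.66, edgeR adjusted p = 5.56e-17). No test compared these lists with other genes.

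After Act D the lists differed between the lines by 7 higher and 6 lower of 17 RAS genes, 5 higher and 3 lower of 14 kinase and scaffold genes, 7 higher and 3 lower of 11 further DUSP, SPRY and SPRED genes and 8 higher and 5 lower of 15 other output genes. Medians were 0.04, 0.07, 1.29 and 0.35 on the log2 scale, beside -0.02 for all genes. Of all genes tested, 35.1% were higher and 35.3% lower after Act D (70.4% in all). Scaling by library totals gave 5 higher and 6 lower, 4 higher and 7 lower, 6 higher and 4 lower and 7 higher and 6 lower, so that the kinase list turned to more lower than higher. NF1 (2.25), ARAF (2.21), DUSP10 (3.93), DUSP1 (3.27) and TRIB2 (2.80) were again higher, and SHOC2 (-0.92), DUSP14 (-1.56) and MYC (-4.29) lower, in edgeR log2 fold changes. Naming by fold change (up to 2 genes per list and direction) added the following genes after Act D. The adaptor gene GRB2 (-0.82, edgeR adjusted p = 3.57e-07) and phosphatase gene PTPN11 (-0.98, edgeR adjusted p = 5.47e-09) were lower. Both act upstream of RAS. The scaffold gene KSR1 (1.90, edgeR adjusted p = 2.82e-08) and immediate early gene FOS (2.17, edgeR adjusted p = 7.33e-09) were higher. DUSP7 (-1.20, edgeR adjusted p = 6.12e-09) and CCND1 (-0.42, edgeR adjusted p = 0.00348) were lower. Their vehicle means differed in the same direction, and only DUSP7 among them passed the interaction given below. Vehicle means in RPL3 KO-labelled libraries and the other line were 113 and 170 CPM (GRB2) and 188 and 380 CPM (PTPN11). They were 15.6 and 5.74 CPM (KSR1), 58.2 and 10.6 CPM (FOS), 25.5 and 30.1 CPM (DUSP7) and 465 and 613 CPM (CCND1). KSR2 had 2 counts in each RPL3 KO-labelled library with Act D.

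The same lists were read for the effect of Act D. In HCT 116p53-/- cells 0 rose and 6 fell of 17 RAS genes, 2 rose and 2 fell of 14 kinase and scaffold genes, 2 rose and 1 fell of 11 further DUSP, SPRY and SPRED genes and 3 rose and 2 fell of 15 other output genes, beside 7.59% of all genes that rose and 11.1% that fell. The counts in RPL3 KO-labelled cells were 1 up and 2 down, 0 up and 3 down, 0 up and 1 down and 1 up and 4 down, in the same order, beside 3.51% and 8.4% of all genes. RASAL2, a RAS GTPase-activating protein gene, fell in both lines, from 36.3 ± 2.87 CPM to 18.0 ± 2.40 CPM and from 63.4 ± 6.77 CPM to 24.9 ± 1.54 CPM (SD, n = 3 each; edgeR adjusted p = 7.57e-06 and 1.97e-06). HBEGF, which encodes a ligand of the EGF receptor, rose in both (log2 fold changes 1.12 and 0.64, edgeR adjusted p = 4.31e-06 and 0.000455), and the cyclin gene CCND1 fell in both (-0.60 and -0.62, edgeR adjusted p = 0.00117 and 0.00157). Further genes that passed in HCT 116p53-/- cells were PEA15 (0.35, edgeR adjusted p = 0.00357), PEBP1 (0.32, edgeR adjusted p = 0.021), DUSP14 (0.50, edgeR adjusted p = 0.0062) and the ephrin receptor gene EPHA2 (0.79, edgeR adjusted p = 4.13e-06), which rose, and DAB2IP (-0.61, edgeR adjusted p = 0.00247), KSR2 (-0.67, edgeR adjusted p = 0.0072), DUSP3 (-0.44, edgeR adjusted p = 0.00418) and MYC (-0.27, edgeR adjusted p = 0.0192), which fell. In RPL3 KO-labelled cells NRAS rose (0.32, edgeR adjusted p = 0.0378), and GRB2 (-0.33, edgeR adjusted p = 0.0256), MAP2K1 (-0.39, edgeR adjusted p = 0.00665) and the AP-1 gene FOSL1 (-0.52, edgeR adjusted p = 0.000339) fell. Of the genes named in this paragraph, scaling by library totals ended the calls of PEBP1 (0.22, adjusted p = 0.165), PEA15 (0.25, adjusted p = 0.0572) and NRAS (0.21, adjusted p = 0.149), and upper-quartile scaling that of GRB2 (-0.27, adjusted p = 0.0669).

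DUSP7, a close relative of DUSP6, rose with Act D in HCT 116p53-/- cells from 30.1 ± 3.32 CPM to 44.5 ± 0.354 CPM and fell in RPL3 KO-labelled cells from 25.5 ± 0.978 CPM to 19.3 ± 0.603 CPM (SD over 3 libraries), and the responses differed by -0.96 on the log2 scale (standard error 0.14, edgeR adjusted p = 0.000645). Among the other list genes the interaction passed in the same direction for DUSP8 (-1.06), MAP2K1 (-0.43), PEA15 (-0.47), FOSL1 (-0.69), EPHA2 (-1.001) and LIF (-0.83), and in the other direction for RASA1 (0.55). RASA1, MAP2K1 and DUSP8 no longer passed with scaling by library totals. All of these were chosen for naming here after their values were seen, with edgeR adjusted p between 0.000111 and 0.0495.

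**Figure D5:**
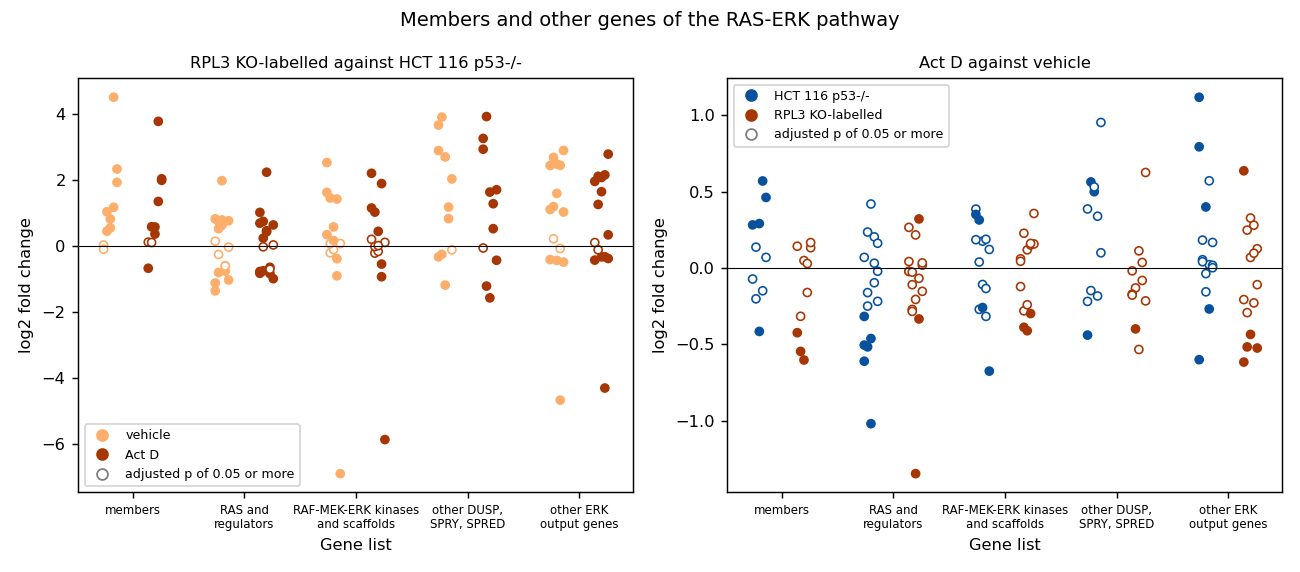
log2 fold changes (vertical axis) of the members and of the genes of 4 pathway lists, between the lines (left, with vehicle and with Act D) and for Act D against vehicle (right, in each line), 1 point per gene, open where the adjusted p is 0.05 or more. The vertical scales differ, and the lowest points on the left are KSR2 and MYC.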

How the data were processed

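RNA-seq values of 12 libraries were used. The authors filtered reads by quality and against contaminants such as rRNA and ran RSEM 1.2.25 against Ensembl models on hg38 (the version is also in the submitters' processing notes). The deposited expected counts are fractional and not normalized. They are per gene in 11 libraries, and in replicate 2 of HCT 116p53-/- cells with vehicle per transcript (226788 transcripts), where they were summed per gene. The authors' RSEM also gave the deposited TPM, the percent of a gene's abundance held by each transcript, and a posterior standard deviation of each count, which were used as descriptions only.

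Groups and replicate numbers came from the sample titles. Counts were rounded, 15692 of 33990 genes passed edgeR's filterByExpr, and all 12 libraries were fitted with 1 coefficient per group (edgeR 4.0.16, TMM factors 0.847 to 1.15, common dispersion 0.0117). Each adjusted p is from its quasi-likelihood test with Benjamini-Hochberg adjustment over all genes tested, at the study's FDR of 0.05. No tool for this step is given in the sources used here. Standard errors were taken from the test statistic, and 95% intervals from its degrees of freedom. Each p-value sets a difference against the spread between replicate cultures, estimated over the 4 groups with information from all genes. It does not cover spread between lines, since each genotype is 1 line. The members and lists were chosen with earlier results of these data known. Beyond the members and RPL3, up to 2 genes per list, direction and comparison were named by fold change (adjusted p under 0.05, groups that did not overlap, and 5 CPM or more on average in 1 of them), and some of these are not reported here. Gene symbols and positions were taken from GENCODE v44 (hg38), with 60261 of 60617 identifiers matched, and promoter windows from RefSeq.

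Same-numbered libraries of 2 groups did not deviate together, so that no pairing was used. The alternatives were DESeq2 1.42.0, scaling by library totals, upper-quartile scaling, other filters (none, or 1 CPM in 3 libraries), a block for the replicate number, fits of the compared groups alone, each library left out, and, added later, the subtraction of the share of the other line. In simulated counts for the comparison between the lines with vehicle (15160 genes, 200 changed), the test recovered 49.2% of genes changed by 0.5 on the log2 scale, 86.4% of those changed by 1 and 95.8% of those changed by 2. The simulation used 1 dispersion for all genes and few changed genes, while 71.3% of genes passed in the data. The rates therefore do not give the share of such changes found in the data. R 4.3.3 and Python 3.11 were used.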

Additional observations from a re-analysis of the deposited data

Results flagged for a closer look

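The interaction of line and Act D passed for 2 of the 10 members, both downward, beside 6.53% of all genes (3.23% downward). For DUSP4 the response in RPL3 KO-labelled cells minus that in HCT 116p53-/- cells was -0.71 on the log2 scale (edgeR adjusted p = 0.00294), and every treated library lay above every control in HCT 116p53-/- cells and below every control in RPL3 KO-labelled cells. For SPRY2 it was -0.73 (edgeR adjusted p = 0.0481), with HCT 116p53-/- levels under 10 CPM, and this call was lost without any one of 9 of the 12 libraries, with upper-quartile scaling and with the share of the other line subtracted. The share of near-exclusive transcripts of the other line in HCT 116p53-/- libraries was 0.351% to 0.605% with vehicle and 0.942% to 1.05% with Act D. With this share subtracted, the SPRY2 difference kept its direction but not its call. Where the share came from was not tested. Groups of 3 libraries were not examined for outlying samples.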

How the results depend on the processing

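Over 52 single-gene values and their alternatives (778 refits), 717 kept their direction and side of the threshold, 38 lost the threshold, 7 gained it and 16 changed sign, none of these with an adjusted p under 0.05. With library size scaling the sign changed for DUSP4 between the lines with vehicle (-0.20), RPL3 between the lines with vehicle (-0.11), SPRED1 between the lines with Act D (-0.12), PHLDA1 between the lines with Act D (-0.12), RPL3 between the lines with Act D (-0.13), ETV5 with Act D in HCT 116p53-/- cells (-0.029), DUSP6 with Act D in RPL3 KO-labelled cells (-0.050), ETV4 with Act D in RPL3 KO-labelled cells (-0.070). With no filter on low counts the sign changed for ETV4 with Act D in RPL3 KO-labelled cells (-0.013). Leaving out each library changed the sign of DUSP4 between the lines with vehicle (-0.016 to 0.093), ETV5 with Act D in HCT 116p53-/- cells (-0.0057 to 0.12), DUSP6 with Act D in RPL3 KO-labelled cells (-0.020 to 0.089), ETV4 with Act D in RPL3 KO-labelled cells (-0.070 to 0.089). The number of members past the threshold between the lines was 8 or 7 throughout. For Act D in HCT 116p53-/- cells it was 2 with library size scaling and 3 without a filter, in place of 5, and 1 to 3 when each library was left out. For Act D in RPL3 KO-labelled cells it was 3 or 4. The interaction passed for 1 member with upper-quartile scaling and 1 with the share of the other line subtracted, in place of 2, for 3 without a filter, and for 1 to 2 when each library was left out. Causes were not tested. With the replicate number as a block the counts were 8 and 8 between the lines, 5 and 3 for Act D and 2 for the interaction, as without it. Deviations of same-numbered libraries correlated at -0.10 to 0.10, and for Act D in the RPL3 KO line the descriptions and titles of the samples give different numbers. Depth limits SPRY2 most, with 58 counts in its lowest library.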
